A study of Caenorhabditis elegans with 30 samples.

Results

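Worms kept overnight at 15 C were compared with worms cultivated at 20 C after all of them had spent 2 hours on ice, gene by gene across the whole transcriptome. The comparison uses 12 of the 30 libraries of the study: 6 of each temperature, of which 3 were from naive worms and 3 from worms conditioned with the odorant butanone. The naive and conditioned counts of each replicate letter were added, which gave 3 sums at 20 C (A, E and F) and 3 sums at 15 C (B, G and H). The study asks how cold and lithium delay the forgetting of odour memories, and its submitters describe worms kept at 20 C as cold-sensitive with delayed forgetting on ice, and worms kept at 15 C as cold-tolerant without that delay.

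RNA with poly(A) tails was taken from whole worms of N2, the wild-type strain of Caenorhabditis elegans, fed on Escherichia coli OP-50. No mutant or transgene was used. A further 6 ice libraries came from worms moved for 2 hours to 20 C after a night at 15 C (sums C, D and H). They entered the fit for its estimate of the spread, and with it the expression filter and the scaling, and are given as values. A further 6 libraries of untrained worms, kept overnight at 15 C or 20 C on plain NGM agar without ice, share no sample with the ice experiment and serve as a second look at the same temperature contrast. The labels give no age, stage or number of worms, and nothing says whether replicates came from separately grown cultures, so p-values measure the spread between these samples.

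Cultivation temperature sets how well C. elegans survives cold. In this species acclimation involves temperature-sensing neurons, the membrane fluidity pathway of the adiponectin-receptor homologue PAQR-2 and the fatty acid desaturases, insulin-like signals, and sperm and intestine acting in a circuit between tissues. Forgetting of an olfactory memory is an active process in which the SARM homologue TIR-1 and the kinase JNK-1 act in sensory neurons, and diacylglycerol signalling sets how strongly neurons release transmitter.

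Total counts ran from 9873554 to 30054357 over the 12 libraries and from 20208037 to 51907819 over the 6 sums. The 3 smallest libraries were all from 20 C. Every 15 C sum was deeper than every 20 C sum, with 48055541 to 51907819 counts against 20208037 to 44786116. Genes with at least 1 count numbered 18739 to 23764 in the 15 C sums and 17200 to 18036 in the 20 C sums. The part of depth in the values of genes close to the detection limit was not tested. Markers of neurons, muscle, intestine, germline and oocytes, and embryos were present in every sum, as the label of whole worms implies. The sperm phosphatase gene gsp-3 stood at 0.317, 0.192 and 0.200 CPM (counts divided by library sizes that the trimmed mean method scales) in A, E and F.

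The 20 C sum E stood apart from the other 8 sums of the experiment in its short transcripts. Protein-coding genes with under 500 exon bases held 25.2% of the counts of E and 2.83 to 4.15% of the counts of the other 5 sums of 15 C and 20 C. Over the 1080 tested genes of that length the median deviation of log2 CPM from the mean of all 9 sums was 1.78 in E, against -0.38 in A and -0.60 in F. Over the 3744 genes with 2000 or more exon bases it was -0.78 in E, 0.19 in A and 0.01 in F. Both libraries of E had this form, with 23.2% of naive and 27.3% of conditioned counts in short genes. Which cDNA kit served which library is not given in the sources used here, and its part in E was not tested, so results are given with and without E.

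**Figure D1:**
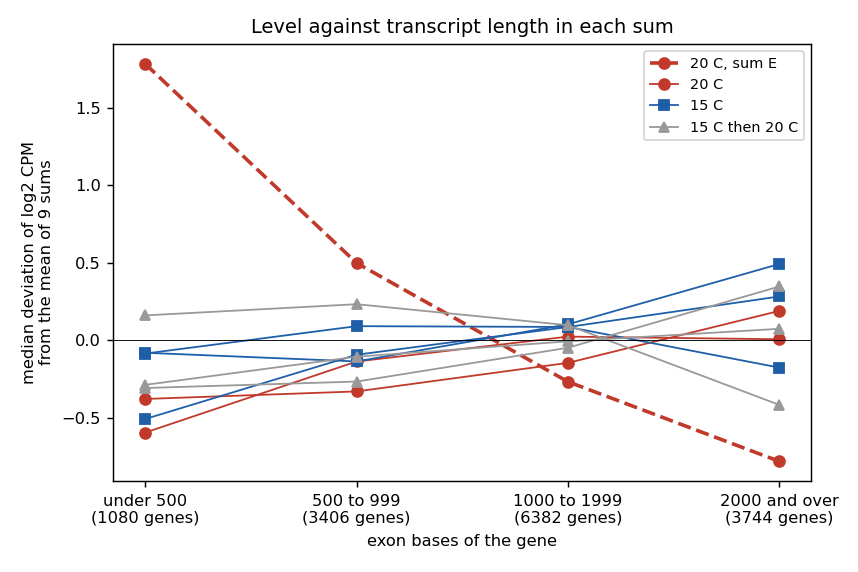
Median deviation of log2 CPM from the mean of the 9 ice sums (y axis) for tested protein-coding genes in 4 classes of exon length (x axis), with 1 line for each sum coloured by temperature. Sum E of 20 C (dashed) falls from 1.78 in the shortest class to -0.78 in the longest, while the other sums lie between -0.60 and 0.49.

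The 15 C sums were not alike either. The correlation of log2 CPM across genes was 0.842 to 0.935 between pairs of 15 C sums, 0.894 to 0.965 between pairs of 20 C sums, and 0.780 to 0.958 between a 15 C and a 20 C sum. G of 15 C was as close to F of 20 C (0.958) as any pair of these 6 sums but A and F (0.965). H of 15 C was closest of all to the sum of the same letter in shifted worms (0.980), and the labels do not say what the letters share.

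Across all 15412 genes tested, no gene passed edgeR's quasi-likelihood test with Benjamini-Hochberg adjustment at 0.05 (0% called), and the lowest adjusted p was 0.39. At an unadjusted p under 0.05, 1423 genes were higher at 15 C (9.23% of those tested) and 522 were lower (3.39%). All 3 sums of 15 C lay above all 3 of 20 C in 1211 genes (7.86%) and below in 380 (2.47%). Without E, 0 genes were called and the unadjusted counts were 877 higher (5.43%) and 100 lower (0.619%) of 16143 genes.

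Other tests on the same sums did call genes. DESeq2 called 126 genes higher (0.818%) and 34 lower (0.221%) at an adjusted p under 0.05. The limma-voom test with sample weights, which weighs sums that spread more less, called 50 higher (0.324%) and 23 lower (0.149%). The 32 genes called by both, 24 higher and 8 lower, were 20.0% of the DESeq2 calls and 43.8% of the limma-voom calls. In the text below a gene is said to have risen or fallen only where it belongs to these 32, and all other genes are given as values.

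Among the 6 higher genes with the lowest p, at least 10 CPM and no overlap, 3 rose by both of these tests. F41H10.1 (WBGene00018314, chromosome IV, 5382909 to 5383930, plus strand, build ce11) had 1.86, 2.16 and 1.4 CPM in the 20 C sums A, E and F and 27.7, 10.1 and 37.4 CPM in the 15 C sums B, G and H. Its log2 fold change of 15 C over 20 C was 3.80 ± 0.61 (SE of the fit, n = 3 sums against 3; 13.9-fold), with an adjusted p of 0.39 in edgeR, 9.99e-06 in DESeq2 and 0.0345 in limma-voom. All 3 sums of 15 C were well above all 3 of 20 C, and the shifted sums stood at 28.8, 51.8 and 85.2 CPM.

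The calponin-like gene clik-2 (chromosome X, 7686640 to 7689219, minus strand), of a family of actin-binding proteins, had 2.89, 0.528 and 2.37 CPM at 20 C and 37.9, 10.3 and 16 CPM at 15 C. Its log2 fold change was 3.47 ± 0.75, with an adjusted p of 0.39 in edgeR, 0.0036 in DESeq2 and 0.0446 in limma-voom. The acyltransferase-like gene acl-12 (chromosome X, 7439400 to 7442577, minus strand) had 5.86, 5.18 and 7.41 CPM at 20 C and 50.5, 10.8 and 41.2 CPM at 15 C, a log2 fold change of 2.47 ± 0.63 (adjusted p 0.39 in edgeR, 0.0337 in DESeq2 and 0.0416 in limma-voom). In both genes G was the lowest 15 C sum and still above every 20 C sum.

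The other 3 of these genes encode collagens of the cuticle and a tubulin. The collagen gene col-107 (chromosome IV, 1548721 to 1549714, plus strand) had 1.35, 0.288 and 0.687 CPM at 20 C and 65.1, 1.8 and 2.71 CPM at 15 C, so that its log2 fold change of 4.90 ± 1.31 was 1.54 without B. The collagen gene col-34 (chromosome IV, 4243545 to 4244610, minus strand) had 4.08, 2.69 and 10.7 CPM at 20 C and 17.3, 20.2 and 47 CPM at 15 C (log2 fold change 2.27 ± 0.63, adjusted p 0.39 in edgeR, 0.0604 in DESeq2 and 0.0492 in limma-voom). The gene mec-7 (chromosome X, 7774856 to 7776689, minus strand), the beta-tubulin of touch receptor neurons, had 11.8, 3.31 and 13.9 CPM at 20 C and 53.1, 21 and 41.9 CPM at 15 C, a log2 fold change of 2.00 ± 0.56.

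Among the 6 lower genes chosen the same way, sysm-1 (chromosome II, 9082626 to 9083193, minus strand) was the one that fell by both tests. It had 85.7, 62.1 and 18.4 CPM at 20 C and 5.92, 2.15 and 3.53 CPM at 15 C, with a log2 fold change of -3.84 ± 0.64 (adjusted p 0.39 in edgeR, 3.99e-06 in DESeq2 and 0.0446 in limma-voom). Without E the value was -3.75. The shifted sums, at 4.25, 2.95 and 3.97 CPM, lay within the range of the 15 C sums.

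The insulin-like peptide gene ins-19 (chromosome II, 3126037 to 3126441, minus strand) had 34.8, 24 and 3.39 CPM at 20 C and 1.44, 0.111 and 0.238 CPM at 15 C, and its log2 fold change was -5.13 ± 1.26 (adjusted p 0.39 in edgeR, 0.000508 in DESeq2 and 0.0576 in limma-voom). F22H10.6 (chromosome X, 16689316 to 16691336, minus strand) had 56.9, 70.7 and 36.6 CPM at 20 C and 11.1, 19.6 and 14.8 CPM at 15 C, a log2 fold change of -1.85 ± 0.50. Groups did not overlap in either gene, and E was not the highest 20 C sum in ins-19.

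The other 3 lower genes were highest in E by a wide margin. F23D12.11 (chromosome X, 14423871 to 14424751, minus strand) had 194, 2118 and 174 CPM in A, E and F and 56.7, 74.6 and 39 CPM at 15 C, and its log2 fold change of -3.87 ± 0.96 was -1.69 without E. The small peptide genes nspc-1 (chromosome X, 8534672 to 8535106, minus strand) and nspc-4 (chromosome X, 8537956 to 8538362, minus strand) belong to group C of the nematode-specific peptide family. nspc-1 had 9.82, 42.5 and 5.43 CPM at 20 C and 1.49, 0.854 and 2.14 CPM at 15 C. nspc-4 had 41.5, 208 and 24.3 CPM at 20 C and 13.2, 4.77 and 9.41 CPM at 15 C. Their log2 fold changes of -3.68 ± 0.79 and -3.32 ± 0.77 were -2.35 and -1.85 without E, and A and F were above every 15 C sum in both genes.

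**Figure D2:**
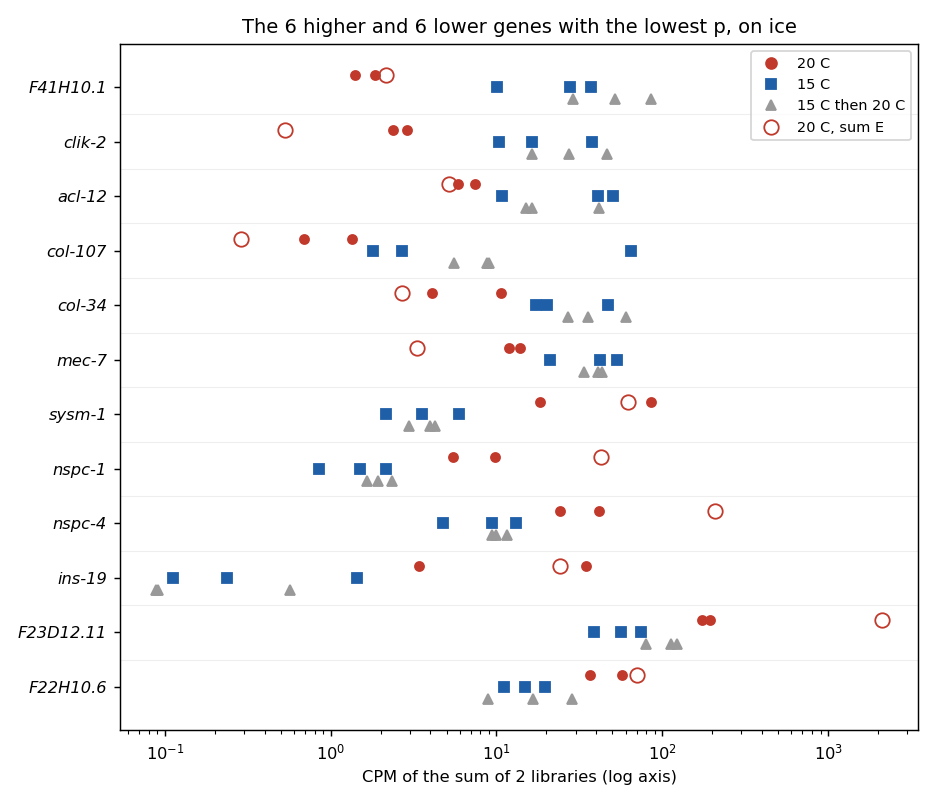
CPM on a log axis (x axis) of the 6 higher and 6 lower genes with the lowest p among genes without overlap of 15 C and 20 C and with a mean of 10 CPM or more; each point is 1 sum of a naive and a conditioned library. The 15 C sums (squares) lie to the right of the 20 C sums (circles, E open) in the upper 6 genes and to the left in the lower 6, and the sums of shifted worms (triangles) are shown for comparison.

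Of the 18 nspc genes 16 were tested, and 14 of these 16 were lower in every 15 C sum than in any 20 C sum, beside 2.47% of all genes. This family was picked out after its values were seen. The median log2 fold change of the 16 was -2.96, and -1.41 without E. Because these genes are near-identical neighbours, the counting may have moved reads between them, and they are not independent measurements. On plain agar 12 were tested, with a median of -1.43. In edgeR 6 of these 12 were lower at 15 C at an adjusted p under 0.05, beside 7.77% of all genes.

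Most neuron markers had higher values at 15 C. Of 28 neuron markers 27 were tested, 24 had a positive log2 fold change (56.9% of all genes did), 8 were above 20 C in every 15 C sum (7.86% of all genes) and 12 had an unadjusted p under 0.05 (9.23% of all genes). The median log2 fold change was 1.58, against 0.14 over all genes tested, and 1.42 without E. The mean log2 CPM of the list was 0.98, 0.44 and 0.88 in the 20 C sums A, E and F and 2.70, 1.26 and 2.01 in the 15 C sums B, G and H, without overlap. When naive and conditioned libraries were taken separately, A and G overlapped. Their levels were 1.38 and 1.35 in A, and 1.35 and 1.37 in G. None of the 27 passed an adjusted p under 0.05 in edgeR or DESeq2, and in limma-voom mec-7 and egl-3 both had 0.0492.

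Neuropeptide genes, the largest neuronal list, did not separate the temperatures. Of 96 genes 84 were tested, 56 were positive and 8 were higher without overlap (9.52%, beside 7.86% of all genes). The list level was -0.64, 1.05 and -0.40 in A, E and F and 1.32, -0.64 and 0.96 in B, G and H. The median of 0.62 was 1.27 without E, 0.09 without B and 0.12 without H.

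The 8 neuron markers without overlap were mec-7, mec-12, mec-17, egl-3, ida-1, unc-25, unc-104 and unc-17. The prohormone convertase gene egl-3 had 5.31, 3.79 and 3.24 CPM at 20 C and 23.9, 7.26 and 14.7 CPM at 15 C, a log2 fold change of 1.89 ± 0.55. The gene ida-1, which encodes a protein of dense-core vesicles, had 5.07, 0.144 and 3.75 CPM at 20 C and 39.5, 6.97 and 22.7 CPM at 15 C, a log2 fold change of 2.94 ± 1.00. The glutamate decarboxylase gene unc-25, which marks GABA neurons, had 9.03, 2.11 and 10.5 CPM at 20 C and 39.7, 13.9 and 25.1 CPM at 15 C. E was the lowest sum in ida-1 and unc-25, and A and F alone were also below every 15 C sum in these genes.

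The neuron markers named in the plan, unc-119, rab-3 and snt-1, all overlapped between the temperatures. The pan-neuronal gene unc-119 had 2.26, 6.43 and 5.92 CPM at 20 C and 1.78, 4.11 and 4.34 CPM at 15 C, and the synaptic vesicle gene rab-3 had 1.70, 1.54 and 1.60 CPM at 20 C and 2.80, 1.34 and 1.63 CPM at 15 C. The synaptotagmin gene snt-1, at 0.436, 0.432 and 0.177 CPM at 20 C, reached 2.15, 0.316 and 1.13 CPM at 15 C. In snt-1 the overlap came from G, while B and H were above every 20 C sum. The tissue of a bulk sample is not separated, so fewer cells of a type and less RNA per cell cannot be told apart here.

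Ionotropic glutamate receptors, the fast excitatory receptors of synapses, were chosen as a family after their values were seen. All 10 members had a positive log2 fold change, with a median of 2.85, of 2.41 without E and of 1.37 without B, and 5 of 10 were without overlap (7.86% of all genes). Most were close to the detection limit. Members with almost no counts at 20 C could pass the expression filter only through the other sums. Their positive signs and lack of overlap are partly fixed by that filter, so these tallies are description only. The AMPA-type receptor gene glr-1 (chromosome III, 8584163 to 8588642, minus strand) had 4, 0 and 0 counts in A, E and F and 159, 20 and 69 counts in B, G and H. The gene glr-2 had 0.198, 0.048 and 0.111 CPM at 20 C and 3.61, 0.650 and 0.769 CPM at 15 C (log2 fold change 3.77 ± 0.93), and glr-5 had 0.396, 0.192 and 0.177 CPM at 20 C and 3.80, 0.706 and 1.37 CPM at 15 C (2.93 ± 0.77). Adjusted p-values of these 3 genes were 0.39 in edgeR and 0.0133, 0.021 and 0.0331 in DESeq2, and 0.0576 to 0.0758 in limma-voom.

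Genes of the cilium and of intraflagellar transport, the machinery of sensory endings, were also picked out afterwards. Of 60 such genes 56 were tested, 53 had a positive log2 fold change, and 11 were higher without overlap (19.6%, beside 7.86% of all genes) and 0 lower. The median was 2.18, and was 2.06 without E and 1.14 without B. The list level overlapped between groups, with mean log2 CPM of -0.78, -1.34 and -1.06 in A, E and F and 1.79, -0.91 and 0.63 in B, G and H, since G stood at the level of the 20 C sums. The transport gene ift-139 had 0.277, 0.096 and 0.111 CPM at 20 C and 7.02, 0.669 and 1.13 CPM at 15 C. The limit set by the expression filter holds for members of this list close to the detection limit too.

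**Figure D3:**
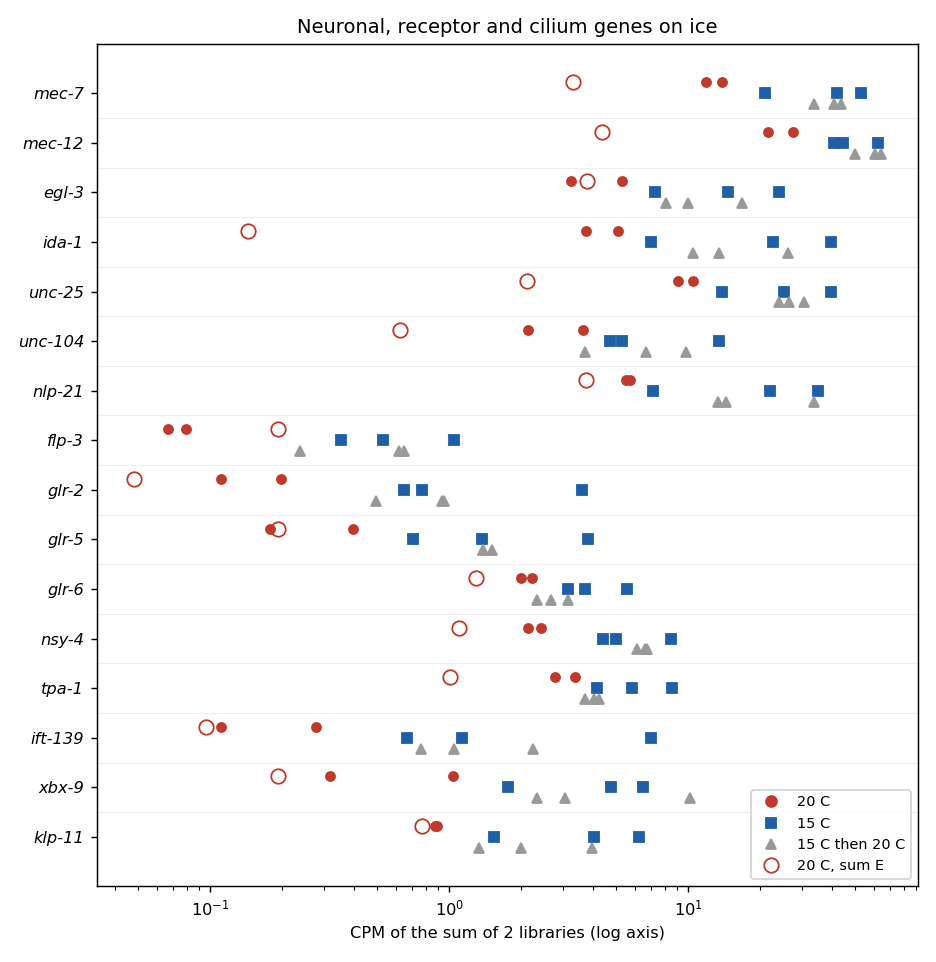
CPM on a log axis (x axis) of 16 neuronal, receptor and cilium genes without overlap between 15 C and 20 C on ice, chosen after their values were seen; each point is 1 sum of a naive and a conditioned library. The 15 C sums (squares) lie above the 20 C sums (circles, E open) in every gene drawn, as the choice requires, and E is the lowest sum in mec-7, mec-12, ida-1 and unc-25 but not in flp-3.

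Signalling lists near to memory also had positive medians. Of 36 olfactory signalling genes 22 were tested, 19 had a positive log2 fold change, 2 were higher and 1 lower without overlap (9.09% and 4.55% of those tested, beside 7.86% and 2.47% of all genes), and the median was 1.28 (1.14 without E). The olfactory list level was 0.61, 0.29 and 0.69 in A, E and F and 2.13, 0.99 and 1.44 in B, G and H, without overlap. Of 48 genes of learning, memory and forgetting 45 were tested, 34 were positive, 6 were higher without overlap (glr-1, scd-2, dop-1, casy-1, kvs-4 and jnk-1; 13.3%), and the median was 0.79 (0.60 without E). Of 31 diacylglycerol signalling genes 30 were tested, 22 were positive, and tpa-1, plc-3, rgs-2 and dgk-5 were higher without overlap (13.3%), with a median of 0.67 (0.56 without E). The levels of the memory and diacylglycerol lists overlapped between the temperatures. Without B the 3 medians were 0.34, 0.23 and 0.21.

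The genes of memory and of diacylglycerol signalling that were always to be reported had no adjusted p under 0.05 in any of the 3 tests. tir-1 had 113, 10.3 and 49.6 CPM at 20 C and 542, 27.8 and 120 CPM at 15 C, and its log2 fold change of 1.99 ± 1.13 was 0.37 without B. The diacylglycerol kinase gene dgk-1 was close to the detection limit, at 0.119, 0.048 and 0.177 CPM at 20 C and 0.864, 0.0372 and 0.238 CPM at 15 C. In both genes the groups overlapped.

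For egl-4, the cyclic GMP-dependent kinase of odour adaptation, the sums were 149, 76.3 and 114 CPM at 20 C and 118, 154 and 72.7 CPM at 15 C (log2 fold change 0.02 ± 0.51). The CREB homologue crh-1 stood at 12.5, 3.12 and 4.86 CPM at 20 C and 17.6, 4.46 and 7.41 CPM at 15 C (0.52 ± 0.64). For gsk-3, the kinase that lithium inhibits, the values were 20.0, 22.8 and 17.7 CPM at 20 C and 19.8, 28.5 and 15.9 CPM at 15 C (0.09 ± 0.39), and for the inositol monophosphatase ttx-7, another lithium-sensitive enzyme, 48.3, 98.4 and 68.5 against 23.8, 52.2 and 43.5 CPM (-0.85 ± 0.42). The groups overlapped in all 4 genes.

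The desaturase and membrane fluidity list, at the centre of cold acclimation in this species, had 25 of 26 genes tested, 16 positive and 0 without overlap. Its median log2 fold change was 0.34 (0.23 without E and 0.17 without G), and the 0 adjusted p-values under 0.05 in edgeR and in DESeq2 stood beside 2 unadjusted ones in edgeR, both higher. Those 2 were 8% of the tested members, beside 9.23% of all genes. The palmitoyl desaturase gene fat-5 had 4.24, 6.10 and 9.16 CPM at 20 C and 17.6, 7.67 and 14.8 CPM at 15 C (log2 fold change 1.04 ± 0.46). The stearoyl desaturase gene fat-6 had 167, 147 and 110 CPM at 20 C and 809, 111 and 371 CPM at 15 C (1.61 ± 0.74, and 0.78 without B). For both genes a 15 C sum, G, lay among the 20 C sums.

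The related gene fat-7 had 6.50, 46.3 and 40.9 CPM at 20 C and 16.9, 91.8 and 37.5 CPM at 15 C (log2 fold change 0.64 ± 0.83). The receptor gene paqr-2 had 42.5, 21.6 and 51.5 CPM at 20 C and 30.6, 65.6 and 50.9 CPM at 15 C (0.35 ± 0.44). Neither separated the temperatures.

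Of the genes linked to cold survival, 23 of 26 were tested and 19 were positive. Without overlap 3 were higher (13%, beside 7.86% of all genes). These 3 were the channel genes ocr-2 and deg-1 and the receptor guanylate cyclase gene gcy-23 of thermosensory neurons. The median log2 fold change was 0.78 (0.60 without E). The ferritin gene ftn-1 stood at 36.8, 20.6 and 13.1 CPM at 20 C and 421, 11.6 and 264 CPM at 15 C, and the transcription factor gene zip-10, which promotes cold-induced death in this species, at 71.6, 39.2 and 34.2 CPM and 28.5, 6.84 and 44 CPM. In ftn-1 the sums B and H were far above the rest and G was the lowest of all 6.

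A like split of the 15 C sums was seen in 3 further genes, chosen after their values were seen. The aquaporin gene aqp-1 rose in DESeq2 and limma-voom (adjusted p 0.0226 and 0.0492, and 0.39 in edgeR), but its 15 C sums were 1298, 42.1 and 2476 CPM in B, G and H beside 55.8, 13.9 and 37.7 CPM at 20 C, so that G lay within the 20 C range. The lysosomal lipase gene lipl-3 had 34.5, 1.63 and 13.9 CPM at 20 C and 846, 13.2 and 916 CPM at 15 C. The acyl-CoA synthetase gene acs-2 had 29, 56.4 and 42.2 CPM at 20 C and 290, 14.4 and 332 CPM at 15 C. In lipl-3 and acs-2, G was within or below the 20 C range, and shifted H, at 1599 and 448 CPM, was as high as H of 15 C.

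Germline genes were lower in B and H than in the other sums. The mean log2 CPM of 46 germline and oocyte genes was 8.17, 7.91 and 7.89 in A, E and F, 7.04 and 7.15 in B and H, and 8.33 in G, with a median log2 fold change of -0.43. Without E that median was -0.39, without B or H it was -0.20, and without G -1.01. Of these 46 genes 5 were positive, 0 were without overlap and 0 had an unadjusted p under 0.05. Muscle markers, at 5.66, 4.63 and 5.43 in A, E and F and 7.42, 5.68 and 6.13 in B, G and H, did not overlap by a narrow margin between A and G. The separate naive and conditioned libraries did overlap, at 5.79 and 5.75 in A and 5.61 and 5.54 in G. The part of this tissue balance in the neuronal and lipid results was not tested.

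Intestine markers overlapped between the temperatures, with list levels of 7.19, 7.07 and 7.42 at 20 C and 7.50, 6.92 and 7.81 at 15 C. Embryo markers also overlapped, at 1.89, 2.02 and 1.55 against 1.68, 1.94 and 1.99. The 6 vitellogenin genes, which encode yolk proteins made in the intestine, held 34.3, 2.61 and 13.2% of the counts of A, E and F and 29.5, 8.90 and 8.06% of the counts of B, G and H. Their share varied more within a temperature than between temperatures.

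Muscle genes included 1 gene that rose by both tests. The troponin C gene tnc-2 (chromosome II, 10466852 to 10468358, plus strand), a calcium switch of contraction, had 1.15, 0.864 and 1.2 CPM at 20 C and 19.9, 3.86 and 10.3 CPM at 15 C. Its log2 fold change was 3.40 ± 0.62, with an adjusted p of 0.39 in edgeR, 0.000238 in DESeq2 and 0.0366 in limma-voom. The pharyngeal myosin gene myo-2 had 4.71, 0.720 and 1.22 CPM at 20 C and 106, 8.93 and 4.87 CPM at 15 C. Of 27 muscle markers 23 were positive, and the median was 1.00 (0.74 without E and 0.47 without B). Of these markers 4 were higher without overlap (14.8%, beside 7.86% of all genes).

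Cuticle collagens were higher at 15 C in their list level, without overlap. Of 177 genes 136 were tested, 113 were positive, and 34 were higher and 1 lower without overlap, or 25% and 0.735% of the tested members beside 7.86% and 2.47% of all genes. The median was 1.43 (1.49 without E). The list stood at a mean log2 CPM of 1.04, 0.47 and 0.81 in A, E and F, 2.01, 1.83 and 1.84 in B, G and H, and 3.03, 2.52 and 1.90 in the shifted sums. The 3 sums of 15 C were closer to each other here than in the neuronal list.

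Within the collagens col-153 rose in DESeq2 and limma-voom (adjusted p 0.0432 and 0.0442, and 0.39 in edgeR), with 3.21, 3.07 and 4.28 CPM at 20 C and 10.1, 9.29 and 21.3 CPM at 15 C. The exception among those without overlap, col-158, fell by the same tests (0.0133 and 0.0366, and 0.39 in edgeR), from 11.9, 2.45 and 22.4 CPM at 20 C to 0.812, 2.08 and 1.56 CPM at 15 C. DESeq2 called 10 of the 136 tested collagen genes higher and 1 lower, beside 0.818% and 0.221% of all genes.

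Moulting and apical matrix genes had 46 of 49 members tested, 41 positive and 3 higher without overlap (6.52%, below the 7.86% of all genes), with a median of 1.24 (1.16 without E and 0.58 without B). Hedgehog-related and patched-related genes, a family expanded in nematodes and used in cuticle formation, had 62 of 85 tested, 51 positive and 9 higher without overlap (14.5%), with a median of 1.54 (1.39 without E and 0.60 without B). Their levels overlapped between the temperatures, because G was near the 20 C sums.

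Immune and detoxification families were mixed. Of 38 pals genes, which respond to intracellular pathogens, 20 were tested and 15 were positive, with a median of 2.15 (1.87 without E and 0.87 without B). Of the tested pals genes 6 were higher without overlap (30%, beside 7.86% of all genes). The limit set by the expression filter holds for pals genes close to the detection limit too, so these tallies are description only. The gene pals-33 rose by both tests, from 6, 0 and 6 counts at 20 C to 210, 99 and 156 counts at 15 C (adjusted p 9.99e-06 in DESeq2 and 0.0366 in limma-voom, and 0.39 in edgeR). Of 240 C-type lectins 125 were tested, and the median was 0.94 (0.79 without E). Of the tested lectins 24 were higher and 2 lower without overlap (19.2% and 1.6%, beside 7.86% and 2.47% of all genes).

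Among the lectins clec-265 and clec-4 fell by both tests, with log2 fold changes of -2.14 ± 0.60 and -1.97 ± 0.57 (adjusted p 0.39 in edgeR, 0.0395 and 0.0347 in DESeq2, 0.0366 and 0.0464 in limma-voom). The gene clec-265 had 189, 58.6 and 242 CPM at 20 C and 21.1, 58.9 and 30.8 CPM at 15 C, so that E and G overlapped. The gene clec-4 had 11.1, 4.70 and 19.8 CPM at 20 C and 2.93, 3.03 and 3.15 CPM at 15 C, without overlap. The innate immunity list had 27 of 45 members positive and a median of 0.26 (0.02 without B, 0.07 without H and 0.56 without G). Of this list 2 genes were higher and 4 lower without overlap (4.44% and 8.89%, beside 7.86% and 2.47% of all genes). Its lysozyme gene lys-1 was among the lower ones, at 85.6, 85.9 and 100 CPM against 25.7, 51 and 63.0 CPM.

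Of 188 cytochrome P450, UDP-glucuronosyltransferase and glutathione S-transferase genes 174 were tested, with 14 higher and 3 lower without overlap (8.05% and 1.72%, near the 7.86% and 2.47% of all genes) and a median of 0.73 (0.55 without E and 0.42 without B). Of 269 nuclear hormone receptors 183 were tested, 15 were higher and 0 lower without overlap (8.2% higher, also near all genes), and the median was 0.83 (0.71 without E and 0.50 without B). Targets of the transcription factor DAF-16, which acts below insulin signalling, had a median of 0.86 over 25 genes (0.46 without H and 1.29 without G), with 0 higher and 2 lower without overlap (8% lower, beside 2.47% of all genes). The levels of these 3 lists overlapped between the temperatures.

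Several lists were lower at 15 C with E among the 20 C sums and less so, or not, without it. Cytosolic ribosomal proteins had a median of -0.91 over 80 genes, and 0.20 without E, with list levels of 8.31, 10.34 and 8.12 in A, E and F and 8.16, 8.63 and 8.40 in B, G and H. Nuclear genes of the respiratory chain had a median of -0.60, which was -0.04 without E and -0.38 without B. Histones had a median of -1.21, and -0.34 without E. Of 50 tested histone genes 11 were lower without overlap (22%, beside 2.47% of all genes), so that A and F were also above every 15 C sum in them. Epidermal antimicrobial peptides had a median of -1.23, and 0.42 without E.

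**Figure D4:**
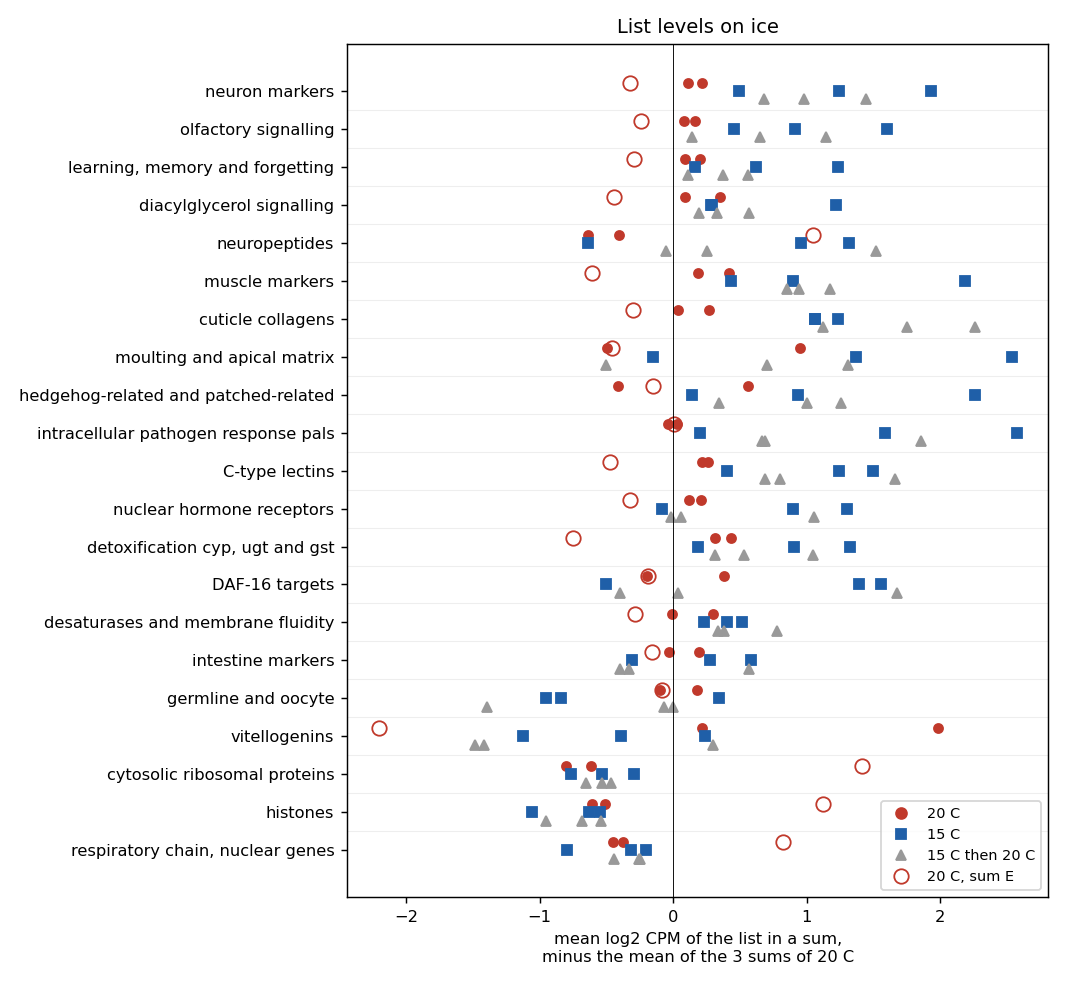
Mean log2 CPM of 21 gene lists in each ice sum, minus the mean of the 3 sums of 20 C (x axis); circles are 20 C sums (E open), squares 15 C sums and triangles shifted sums. The 3 squares of the collagen and neuron marker lists lie to the right of every circle, while ribosomal proteins, histones and respiratory chain genes are set apart by E alone.

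Heat shock genes did not separate the temperatures. The median of 23 tested genes was 0.26 (-0.53 without B and 0.86 without A). Without overlap 1 gene was higher and 1 lower (4.35% each, beside 7.86% and 2.47% of all genes). The inducible chaperone gene hsp-70 had 694, 2.3 and 16.8 CPM in A, E and F and 1858, 28.1 and 18.4 CPM in B, G and H, so that A of 20 C and B of 15 C were far above the rest. Without B its log2 fold change of 1.42 ± 1.86 was -3.35.

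Sperm genes did not separate the temperatures. Of 99 genes 84 were tested, and 63 were positive. Without overlap 10 were higher and 1 lower (11.9% and 1.19%, beside 7.86% and 2.47% of all genes). The median log2 fold change was 0.86. That median was 3.34 without E, 0.39 without F, 0.46 without A and -0.10 without G, so its sign rested on G. The list level was -0.94, 1.00 and -1.96 in A, E and F and -0.79, 1.66 and 0.78 in B, G and H, with overlap. The gene gsp-3 stood at 0.367, 7.62 and 3.13 CPM in B, G and H and reached 27, 66.8 and 3.04 CPM in the shifted sums C, D and H. Whether any sum held more worms with developing sperm was not tested.

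No gene was called for an interaction of temperature with training. In the 18-library fit with the letters as a block, 0 of 14864 genes had an interaction of temperature and training at an adjusted p under 0.05 in edgeR (0% called), 533 had an unadjusted p under 0.05 (3.59%), and DESeq2 called 0. The median log2 fold change of neuron markers was 1.38 in naive and 1.58 in conditioned libraries, that of collagens 1.3 and 1.51, and that of germline genes -0.47 and -0.45. For sysm-1 it was -3.70 in naive and -4.12 in conditioned libraries, and for F41H10.1 4.11 and 3.43. The naive and conditioned libraries of a letter resembled each other beyond their group, so they were not taken as separate evidence.

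The same temperature contrast on plain agar ran the other way for most of these lists. There, 272 of 12392 genes were higher at 15 C (2.19%) and 963 lower (7.77%) at an adjusted p under 0.05 in edgeR, with the lithium libraries in the fit for its spread. Without those libraries edgeR called 0 genes of 12170, and 1078 higher (8.86%) and 2452 lower (20.1%) had an unadjusted p under 0.05. Across 12139 genes tested in both experiments the log2 fold changes had a Pearson r of -0.47 and a Spearman rho of -0.48 (-0.50 for r without E), given as a description, since genes are not independent replicates.

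On plain agar the median log2 fold change was -0.50 for neuron markers (1.58 on ice), -1.45 for moulting genes (1.24), -1.0 for hedgehog-related genes (1.54), -0.97 for pals genes (2.15), -0.71 for C-type lectins (0.94), -0.93 for nuclear hormone receptors (0.83) and 0.57 for germline genes (-0.43 on ice). In the fit with the lithium libraries, beside 2.19% of all genes called higher and 7.77% lower, 0 of 79 C-type lectins were called higher and 18 lower, and 0 of 166 nuclear hormone receptors higher and 37 lower. Collagens had a median of -0.10, with 0 of 80 higher and 4 lower.

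The difference between the 2 contrasts was tested gene by gene with limma-voom over both experiments. Of 14617 genes 0 had an adjusted p under 0.05 (0% called), 2684 had an unadjusted p under 0.05 (18.4%), and edgeR called 0. The gene F41H10.1 had a difference of 5.18 ± 0.95 on the log2 scale with an adjusted p of 0.27. The experiments differ in training, ice, library kit and replicate set at once, and these cannot be told apart.

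A few genes lay in the same direction in both experiments. The gene sysm-1 was at 1.19 to 3.01 CPM at 15 C and 7.78 to 14.3 CPM at 20 C on plain agar, where it fell by 2.22 on the log2 scale (adjusted p = 0.0343 in edgeR). For ins-19 the plain-agar log2 fold change was -2.89 (adjusted p = 0.0468), for clec-265 -1.51 (0.0302), for clec-4 -1.33 (0.0302), and for col-158 -1.87 (0.0291), all in edgeR. These 5 genes were lower at 15 C with and without ice, with the overlap of E and G in clec-265 on ice as the exception, and they were picked out after their values were seen. The difference from the ice contrast was not called in any of them.

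**Figure D5:**
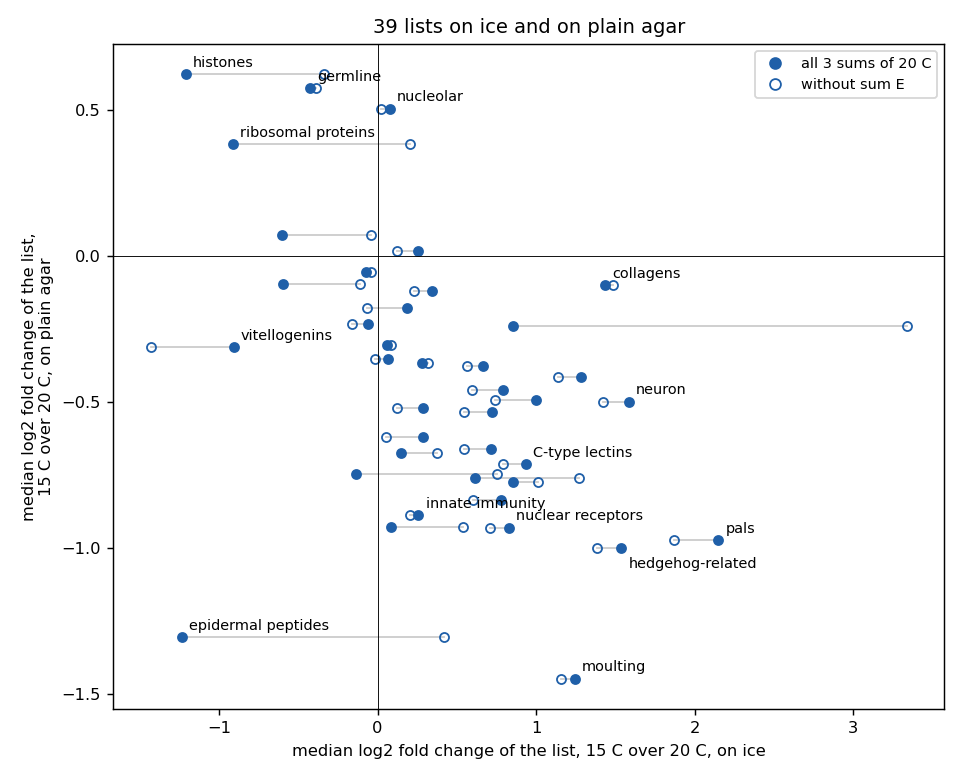
Median log2 fold change of 15 C over 20 C of 39 gene lists on ice (x axis) and on plain agar (y axis); filled points use all 3 sums of 20 C, open points leave out E, and a grey line joins the pair of a list. Neuron markers, moulting genes, hedgehog-related genes and pals genes lie to the right of 0 and below 0, and E moves ribosomal proteins and epidermal peptides across 0 on the x axis.

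Sums of worms shifted back to 20 C share the 20 C control with the comparison above, so their values are only set beside it. The list medians of shifted over 20 C were 1.28 for neuron markers, 1.95 for collagens, 0.37 for moulting genes and -0.40 for germline genes. For col-34 the shifted sums C, D and H were at 27, 35.4 and 60.1 CPM, for col-153 at 11.6, 14.7 and 22.7 CPM, and for col-158 at 0.805, 1.26 and 1.87 CPM. In these 3 genes the shifted sums lay on the 15 C side of every 20 C sum.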

How the data were processed

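The authors deposited unnormalised read counts per gene for 18 ice libraries and 12 libraries of the lithium experiment. Build ce11 and the programs HISAT2, HTSeq, cutadapt, DESeq2 and FastQC are named, without versions, per the submitters' processing notes. Per the labels' protocols the ice cDNA came from SMART-Seq kits with Nextera XT and the other libraries from a directional kit. The strand setting of the counting is not given in the sources used here, so overlapping genes on opposite strands are uncertain. This touches fat-5, tnc-2, aqp-1, mec-12 and col-158 among others (28 of 187 genes examined by name). Symbols, coordinates and exon lengths come from Ensembl release 115 for the same build, which matched 43818 of 46778 genes in the ice table.

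Naive and conditioned counts of a letter were added. The 9 sums in 3 groups were fitted in edgeR 4.0.16 (R 4.3.3) with TMM scaling, filterByExpr and the robust quasi-likelihood test (15412 genes, common biological coefficient of variation 0.645). P-values are two-sided and adjusted by Benjamini-Hochberg over all genes tested, with a threshold of 0.05. DESeq2 1.42.0 and limma 3.58.1 (voom with sample weights) were alternatives; an adjusted p that DESeq2 left empty stayed empty. Log2 CPM levels carry a prior count of 2, while log2 fold changes come from the fits without that setting. Scripts were tested on simulated data with a smaller spread than these sums, which does not show how many genes they could call here. Precision is given as SE of the fit, since libraries of a group differed far beyond counting error (lowest chi-square per degree of freedom 201). The naive and conditioned libraries of each letter were paired: their residuals correlated in all 9 letters and groups (r 0.471 to 0.897).

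Genes named by rule were the 6 higher and 6 lower with the lowest p, a mean of at least 10 CPM over the 6 sums and no overlap (no gene was called), and fat-5, fat-6, fat-7, paqr-2, tir-1, dgk-1, gsk-3, ttx-7, egl-4 and crh-1. The tissue markers unc-119, rab-3, snt-1 and gsp-3 were also named in the plan. All remaining genes were chosen after their values were seen. The comparison, its lists and its tests were chosen with earlier results of these data known, and 3 of the 42 lists (nspc peptides, glutamate receptors, cilium) after the values were seen. The lists have no test of their own: their counts and medians are set beside those of all genes. Lists not described in the report had medians between -0.59 and 0.72.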

Additional observations from a re-analysis of the deposited data

Results flagged for a closer look

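In 2 lists the levels separated the temperatures without overlap both in the ice sums and on plain agar, in opposite directions. Other lists also differed in direction, among them neuron markers (15 C minus 20 C of 1.22 on ice and -0.51 on plain agar). Their levels overlapped on ice, on plain agar or in both. The mean log2 CPM of the C-type lectins was 1.05 higher at 15 C than at 20 C on ice, with all 3 sums of 15 C above all 3 of 20 C, while on plain agar it differed by -0.59, with all 15 C libraries (2.65 to 3.03) below all 20 C libraries (3.29 to 3.48). The mean log2 CPM of the pals genes was 1.45 higher at 15 C on ice and differed by -0.95 on plain agar, where the 15 C libraries stood at 0.43 to 0.73 and the 20 C libraries at 0.94 to 2.39. When the naive and conditioned ice libraries were taken separately, both lists overlapped between 15 C and 20 C. The C-type lectins stood at 1.84 and 1.87 in naive and conditioned G of 15 C, and at 1.93 and 2.03 in A of 20 C. The pals genes stood at -0.80 in naive G, below all 20 C libraries (-0.78 to -0.43). The difference between the experiments was not tested for these lists.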

How the results depend on the processing

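For 15 C against 20 C on ice, edgeR called 0 genes in each leave-one-out fit (0 to 0), while the genes higher at an unadjusted p under 0.05 ranged from 641 to 2431 and the lower ones from 100 to 964. The count on ice was 972 when every gene with at least 1 count was kept, 160 with DESeq2 and 73 with limma-voom. The interaction with training gave 14 with every gene kept, and 0 in each leave-one-out fit and without the replicate block. The plain-agar count was 0 with the plain-agar libraries alone. The difference between ice and plain agar ranged from 0 to 2 when a replicate was left out, with 2 calls without G of 15 C. With the replicate block, which pairs the naive and conditioned libraries of a letter, 0 genes were called on ice, and pairing the plain-agar replicates by number gave 1252 calls. The cause of these shifts was not tested.

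Of the log2 fold changes of named genes 360 kept direction and side of the threshold, 27 passed the threshold only under the alternative, and 23 changed sign, all in 5 genes that passed no test. For fat-7 the value was -0.20 without G (1.06 without B). For paqr-2 it was -0.0685 with the exon length trend removed and E left out. For gsk-3 it was -0.0207 with the 15 C and 20 C sums alone, -0.0238 with RLE scaling, -0.0233 with DESeq2, -0.15 with limma-voom, -0.17 without G (0.27 without H), -0.00434 in naive libraries and -0.31 with the length trend removed. For egl-4 it was -0.10 with the sums alone, with RLE scaling and with DESeq2, -0.0714 with every gene kept, -0.63 with limma-voom, -0.20 without E, -0.25 without G (0.27 without A), -0.0493 in naive and -0.000366 in conditioned libraries, -0.0165 with the replicate block, -0.43 with the length trend removed and -0.33 with that and E left out. For crh-1 it was -0.19 without B (1.29 without A) and -0.0337 with the length trend removed and E left out. Removal of the length trend and the fit on protein-coding genes alone were chosen after seeing the data. Of the list medians 724 moved by less than 1 SD of the sums and 73 by more. With the length trend removed the median over all genes was -0.07 in place of 0.14, and that of neuron markers 1.25. Depth limits genes such as glr-1 and glr-2, which had at most 5 counts in each 20 C sum.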
